A study of Mus musculus with 3 samples.

Results

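The histone deacetylase genes and Sirt1 were read on mouse expression arrays of embryoid bodies whose cells carry human BRCA1 variants. The members are 10 genes, Hdac1, Hdac2, Hdac3, Hdac4, Hdac5, Hdac6, Hdac7, Hdac8, Hdac11 and Sirt1, taken by name because BRCA1 has been reported to act with HDAC2 at the promoter of miR-155. Every probe set annotated with 1 of these symbols alone was used, which gave 16 probe sets of 34945 with a single symbol and 10 genes of 18193. Embryoid bodies form when embryonic stem cells aggregate and start to differentiate. They were grown from stem cells of strain 129S7/SvEv Brd-Hprt b-m2 after feeder cells had been removed on gelatin, and total RNA was taken on day 7. The RQ bodies carried human BRCA1 with R1699Q in the series design text and R1669Q in the array's own label. The MI bodies carried human BRCA1 with M1652I, and the WT bodies carried wild-type human BRCA1. All 3 groups are thus mouse cells with a human BRCA1 gene, and neither the state of mouse Brca1 nor the number of cell clones is given in the sources used here. Each genotype was measured on 1 array, so no difference below has a replicate check or a p-value, and precision is limited by how few arrays there are.

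Histone deacetylases remove acetyl groups from lysines of histones and other proteins, and acetyltransferases add them. Class I enzymes (Hdac1, Hdac2, Hdac3, Hdac8) are mostly nuclear, and Hdac1 and Hdac2 work in the SIN3, NuRD and CoREST corepressor complexes, which are needed in embryonic stem cells. Class IIa enzymes (Hdac4, Hdac5, Hdac7) have little deacetylase activity of their own and act as signal-controlled corepressors. Sirt1 belongs to another family, which uses NAD as a cosubstrate.

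The sequences that frame the finding are the promoters of Sirt1, the member that differed most, and of Hdac2, the member linked to BRCA1, together with the miR-155 locus at which that link was reported. The windows hold the 250 bases before the annotated start, 5′ to 3′ on the gene's strand, from RefSeq on GRCm38.p6. Such windows were used for 8 of the 10 members, all but Hdac1 and Hdac3. Capitals mark the GC box (GGGCGG or its reverse complement) and the E-box (CACGTG, the same on both strands).
Sirt1 promoter, chr10:63339036-63339285, minus strand: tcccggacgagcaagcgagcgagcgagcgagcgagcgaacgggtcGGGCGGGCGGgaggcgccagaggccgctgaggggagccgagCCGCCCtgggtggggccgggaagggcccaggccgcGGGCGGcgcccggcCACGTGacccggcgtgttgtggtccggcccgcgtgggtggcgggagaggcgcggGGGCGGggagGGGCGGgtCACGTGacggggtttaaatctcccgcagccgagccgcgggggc
Hdac2 promoter, chr10:36974294-36974543, plus strand: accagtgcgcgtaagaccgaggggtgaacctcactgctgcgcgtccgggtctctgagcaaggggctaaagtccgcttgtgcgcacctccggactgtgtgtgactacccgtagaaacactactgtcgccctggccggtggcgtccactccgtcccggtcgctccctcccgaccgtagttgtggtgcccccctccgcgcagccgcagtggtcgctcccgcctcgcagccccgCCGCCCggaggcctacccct
Mir155hg promoter, chr16:84712773-84713022, plus strand: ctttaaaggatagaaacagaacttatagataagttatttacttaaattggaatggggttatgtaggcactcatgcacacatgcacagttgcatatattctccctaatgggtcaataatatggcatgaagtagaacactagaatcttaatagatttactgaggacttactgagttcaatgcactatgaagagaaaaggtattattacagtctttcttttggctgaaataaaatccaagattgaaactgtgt
The mature miRNA, chr16:84714143-84714165, plus strand, follows with its seed (bases 2 to 8) in capitals.
mmu-miR-155-5p: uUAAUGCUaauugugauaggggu
The Sirt1 window was 79.2% G and C, with 39 CpG dinucleotides, 6 GC boxes, of which 1 pair overlaps, and 2 E-boxes that overlap no GC box. The Hdac2 window was 68.8% G and C with 27 CpG dinucleotides, 1 GC box and no E-box. The Mir155hg window was 33.2% G and C, with 0 CpG dinucleotides and neither motif. Of 32841 windows of this length, 32.7% held a GC box and 6.0% an E-box. The CCAAT box (CCAAT), the E2F core (TTTNGCGC) and TATAAA were searched on both strands too, and were found in 33.9%, 1.1% and 12.4% of windows. Of the 3 windows printed, Mir155hg held 1 CCAAT box and there were no other matches to these. A match describes the letters alone, and no binding was measured in these samples.

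A gene was read in a comparison where the higher of its 2 signals reached log2 6.31, the median signal of the whole data set, and the probe set with the highest mean stood for a gene. Of the genes so read, 3.17% differed at least 2-fold between RQ and WT, 2.96% between MI and WT and 2.48% between RQ and MI. The arrays also differed by level. Among genes at mean levels of 9 to 10 the median difference was -0.36 for MI minus WT and 0.39 for RQ minus MI, against 0.04 for RQ minus WT. A lowess correction on level was therefore run as well, and its values are given for members and wherever it ends a 2-fold difference. As a gauge of how far probe sets disagree, the differences from the 2 brightest probe sets of 1 gene lay apart by a median of 0.18 for RQ minus WT, 0.19 for MI minus WT and 0.20 for RQ minus MI, and by up to 0.65, 0.56 and 0.65 in 90% of 4344 genes. Both probe sets of a gene are read on the same arrays. A difference past this gap can therefore still arise from variation between arrays or cultures, which the gap does not hold. Cell type markers differed as well. The linear signals of 12 markers of embryonic stem cells summed to 35520 in RQ, 22580 in MI and 23884 in WT, and 12, 11 and 11 of them reached the filter. Those of 15 extraembryonic endoderm markers summed to 2192 in RQ, 2595 in MI and 17626 in WT, with 9, 11 and 13 at the filter. Cubn, Dab2, Lama1 and Krt8 reached it in WT and not in RQ. Of 13 endoderm markers read for RQ minus WT 0 were above 0, beside 51.7% of all genes. For MI minus WT 9 of 13 were below 0, beside 40.5% of all genes, and 4 were above. The linear signals of 12 fibroblast markers summed to 1060 in RQ, 6737 in MI and 1205 in WT, with 7, 11 and 7 at the filter. S100a4 and Cd44 lay below it in both RQ and WT. Of 8 blood and endothelium markers 3, 3 and 2 reached the filter in RQ, MI and WT, and of 8 neural and muscle markers 5 on each array.

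Sirt1, a deacetylase of histones and of transcription factors, was the only member at least 2-fold different in any comparison, and it was so in RQ against WT, where 3.17% of all genes were. Its signal was log2 8.65 in RQ, 7.77 in MI and 7.45 in WT. RQ was thus high, with MI between RQ and WT and nearer to WT. The differences were 1.20 for RQ minus WT, which is 2.29-fold higher, 0.32 for MI minus WT (1.25-fold) and 0.87 for RQ minus MI (1.83-fold). Sirt1 ranked 105 from the top of 12226 genes for RQ minus WT, and 2.30% of the 1480 genes at its level were higher still. For MI minus WT its rank was 1208 of 12786 genes. After the correction for level its differences were 1.17, 0.34 and 0.68. The RQ minus WT difference exceeded the gap of 0.65 that covered 90% of probe set pairs, but Sirt1 has 1 probe set here and no second reading. The stem cell markers differed too, with a median of 1.23 over 12 genes for RQ minus WT. Their median was 0.19 over 11 genes for MI minus WT (0.46 after the correction for level). For RQ minus MI it was 1.17 over 12 genes, and 0.82 after the correction, which is below 2-fold. Of the 12, 9 were above 0 for RQ minus WT and 3 below, beside 51.7% of all genes above 0. For MI minus WT 3 of 11 were at least 2-fold higher and 2 lower, beside 0.516% and 2.44% of all genes. After the correction for level these counts were 4 and 1. The part of these markers in the Sirt1 difference was not tested. In bulk RNA, fewer cells of a type and less RNA per cell cannot be told apart. The 3′ minus 5′ signal, a measure of RNA integrity, was 0.52 in RQ, 0.78 in MI and 0.64 in WT for Actb, and 0.11 in RQ, 0.05 in MI and 0.12 in WT for Gapdh. The part of RNA integrity in the Sirt1 difference was not tested.

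**Figure D1:**
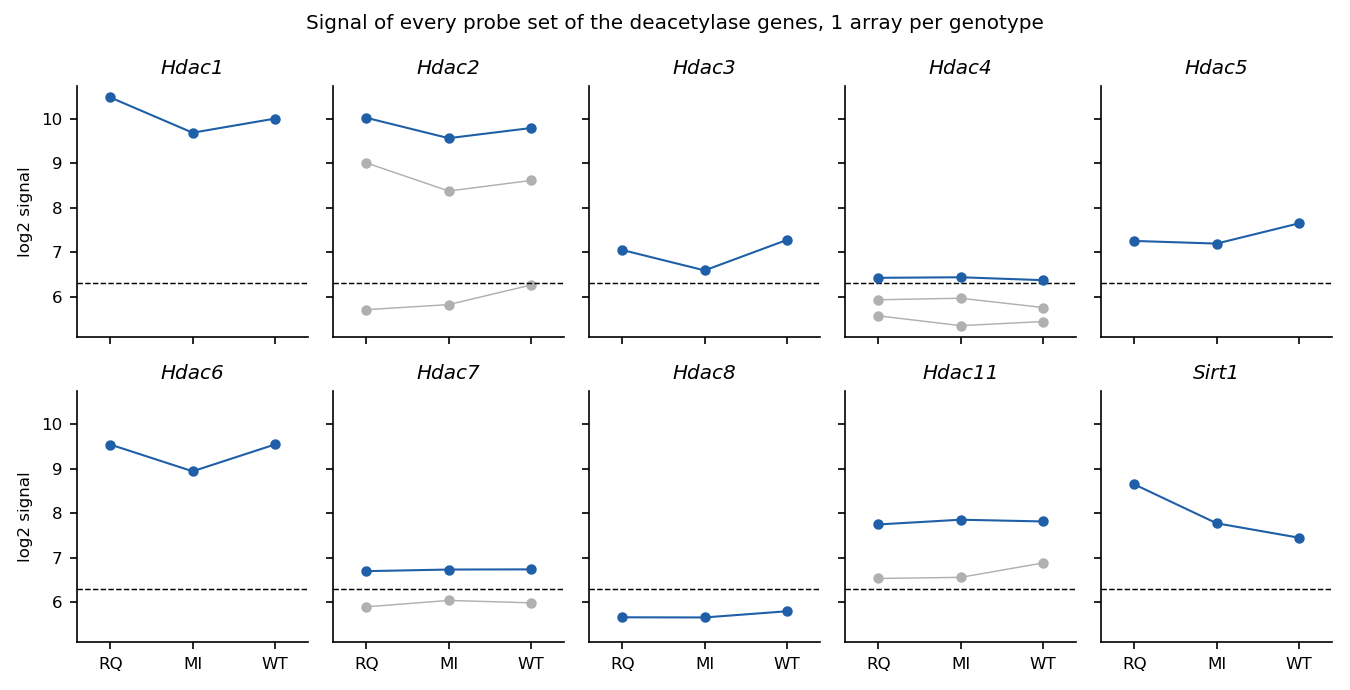
Log2 signal of all 16 probe sets of the 10 genes on the RQ, MI and WT arrays, 1 array per genotype. Blue marks the probe set used for the gene, grey its other probe sets, and the dashed line the level filter of 6.31. Sirt1 reads 8.65 in RQ against 7.45 in WT, while Hdac1, Hdac2 and Hdac6 are lowest in MI.

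Among class I enzymes, Hdac1 and Hdac2, the catalytic pair of the nuclear corepressor complexes, were ordered alike in their brightest probe sets, with RQ highest and MI lowest. The 3′ minus 5′ signal of Actb had the inverse order, lowest in RQ and highest in MI, whereas that of Gapdh was lowest in MI and highest in WT. The part of RNA integrity in these readings was not tested. Hdac1 read 10.48 in RQ, 9.68 in MI and 10.001 in WT. It differed by 0.48 for RQ minus WT (1.39-fold), by -0.32 for MI minus WT and by 0.79 for RQ minus MI (1.73-fold). Only the last of these exceeded the gap of 90% of probe set pairs. The value in MI lay at the middle of the genes of its level, where 54.5% of 635 genes were lower and the median was -0.36, and the correction for level brought MI minus WT to 0.03. RQ minus MI was 0.45 with that correction, and 84.2% of 330 genes at its level were below Hdac1 for RQ minus WT. Relative to genes of its level, Hdac1 was thus near WT in MI and above most genes in RQ.

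Hdac2 was read by 3 probe sets. The brightest gave 10.02 in RQ, 9.56 in MI and 9.79 in WT, and the next gave 9.01, 8.38 and 8.61. These 2 had the same order of arrays, and their RQ minus WT differences were 0.23 and 0.40. Their MI minus WT differences were -0.23 and -0.24 as deposited and 0.10 and -0.05 after the correction for level, so the sign in MI changed with the scaling for the brightest. The third probe set lay below the filter on every array, at 5.71 in RQ, 5.83 in MI and 6.27 in WT. It gave -0.55 for RQ minus WT, opposite to the other 2, and -0.44 for MI minus WT, the same sign as theirs as deposited. The mean of all 3 probe sets differed by 0.02 for RQ minus WT. No reading of Hdac2 reached 1.5-fold against WT above the filter.

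Hdac3, the catalytic subunit of the NCoR and SMRT complexes, was lowest in MI. It read 7.05 in RQ, 6.59 in MI and 7.28 in WT. The MI minus WT difference of -0.69 (1.61-fold lower) was the largest of any member in that comparison and was -0.77 after the correction for level. Of 8610 genes at mean levels of 6 to 7, 0.499% were lower, and genes below the filter are among them. Hdac3 lay at the upper edge of that range, at a mean of 6.94. Of the 12786 genes above the filter in this comparison 6.05% were lower. The RQ minus WT difference was -0.23 and RQ minus MI was 0.46. The only probe set of Hdac3 can match several transcripts. The summed fibroblast markers were 6737 in MI, against 1205 in WT, and their part in the Hdac3 difference was not tested. Hdac8, a class I enzyme that deacetylates the cohesin subunit Smc3, read 5.66 in RQ, 5.66 in MI and 5.80 in WT. It was below the filter on each array, and its differences were not read.

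Of the class IIa genes, Hdac5 alone, by the probe set used, differed from WT by more than the median gap between probe sets. It read 7.25 in RQ, 7.20 in MI and 7.65 in WT, so both variants lay below WT and close to each other. The differences were -0.40 for RQ minus WT (1.32-fold lower), -0.45 for MI minus WT (1.37-fold lower) and 0.06 for RQ minus MI. Both comparisons with WT use the same WT array, so they are not independent of each other. The summed extraembryonic endoderm markers were also low in both variants, at 2192 in RQ and 2595 in MI, against 17626 in WT. Singly, 0 of 13 were above 0 for RQ minus WT and 4 of 13 for MI minus WT. The part of these markers in the Hdac5 differences was not tested. At its level 8.52% of genes were lower for RQ minus WT and 11.8% for MI minus WT. Hdac4 was just above the filter, with 6.43 in RQ, 6.44 in MI and 6.37 in WT, and its other 2 probe sets lay below it. Hdac7 read 6.70 in RQ, 6.73 in MI and 6.74 in WT, and its second probe set was below the filter. For Hdac4 and Hdac7 the 3 arrays lay within 0.07 and 0.04 of each other, less than the median gap between probe sets.

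Hdac6 and Hdac11 belong to other classes. Hdac6, a mainly cytoplasmic enzyme that deacetylates tubulin, read 9.54 in RQ, 8.94 in MI and 9.54 in WT. RQ and WT were the same to within 0.002, and MI was lower by a difference of -0.60 (1.52-fold). After the correction for level MI minus WT was -0.32, and 31.8% of the 635 genes at its level were lower as deposited. Hdac6 thus lay within the middle 50% of those genes, and the part of the fibroblast markers in its MI value was not tested. Hdac11, the class IV enzyme, had 2 probe sets above the filter that did not give the same picture. The brighter read 7.74 in RQ, 7.85 in MI and 7.81 in WT. The other read 6.53 in RQ, 6.56 in MI and 6.88 in WT, which is a difference of -0.35 for RQ minus WT and -0.32 for MI minus WT.

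Counted together, 9 of the 10 members were above the filter in each comparison, all but Hdac8. For RQ minus WT 1 of 9 was at least 2-fold higher and 0 lower, beside 1.68% and 1.49% of all genes, and the median was -0.002 beside 0.01 over all genes. For MI minus WT 0 of 9 passed 2-fold, beside 0.516% higher and 2.44% lower of all genes, 6 were below 0 beside 40.5% of all genes, and the median was -0.23 beside 0.06. For RQ minus MI 0 of 9 passed 2-fold, beside 1.98% higher and 0.508% lower of all genes, 6 were above 0 beside 44% of all genes, and the median was 0.46 beside -0.05. With the correction for level the medians were 0.004, -0.02 and 0.12, and 5, 4 and 8 of the 9 members were above 0. The share of all genes above 0 after the correction was not counted, so these counts are not read as a result. For RQ minus MI the median was smaller after the correction. Hdac4 and Hdac7 crossed 0 there by small steps, from -0.01 and -0.04 to 0.09 and 0.06. At 1.5-fold the count was 1 of 9 for RQ minus WT, 2 for MI minus WT (Hdac3 and Hdac6, both lower) and 3 for RQ minus MI (Hdac1, Hdac6 and Sirt1, all higher), beside 11.2%, 9.96% and 11.1% of all genes in either direction. In the direction of these members the shares of all genes were 6.9% higher for RQ minus WT, 8.04% lower for MI minus WT and 9.54% higher for RQ minus MI. After the correction for level Hdac6 was at -0.32 for MI minus WT, below 1.5-fold. Hdac1 and Hdac6 were then at 0.45 and 0.29 for RQ minus MI, also below it. At 3-fold no member was past the limit in any comparison, beside 0.892%, 0.704% and 0.383% of all genes. Of the 9 members, 5 lay within the middle 50% of genes of their level for RQ minus WT, and 6 each for MI minus WT and RQ minus MI.

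**Figure D2:**
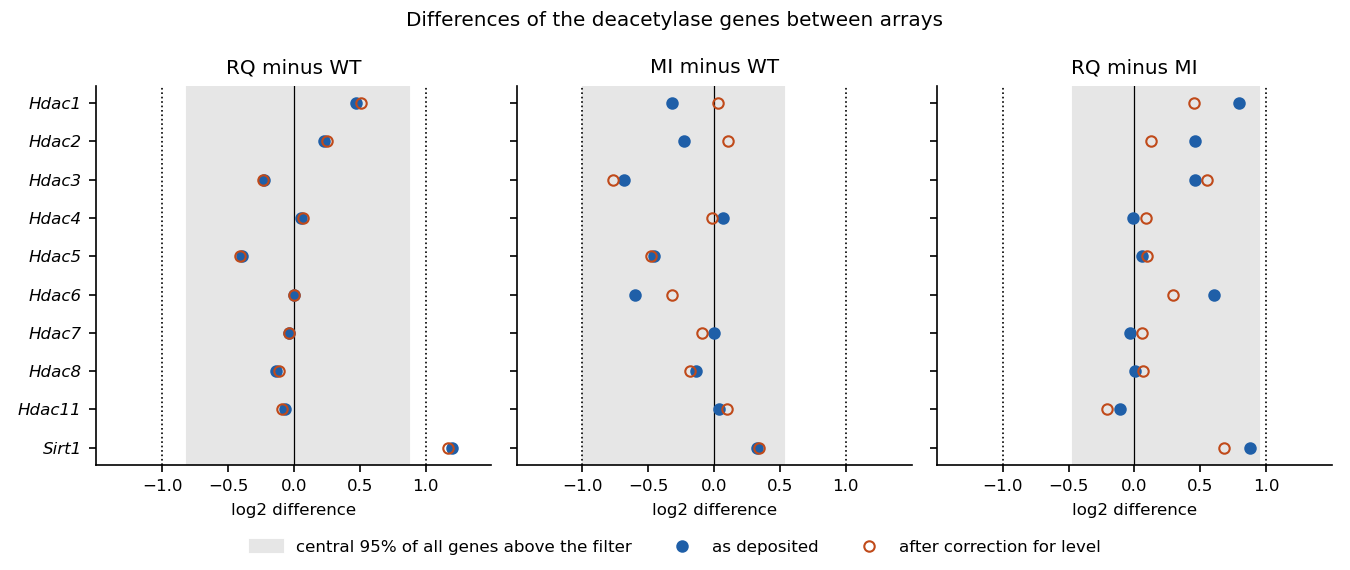
Log2 difference of each member in the 3 comparisons, as deposited (blue) and after the lowess correction on level (open circles). Grey spans the central 95% of genes above the filter and dotted lines mark 2-fold. Sirt1 at 1.20 for RQ minus WT is the only point past 2-fold, and the correction moves Hdac1, Hdac2 and Hdac6 where MI is compared.

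**Figure D3:**
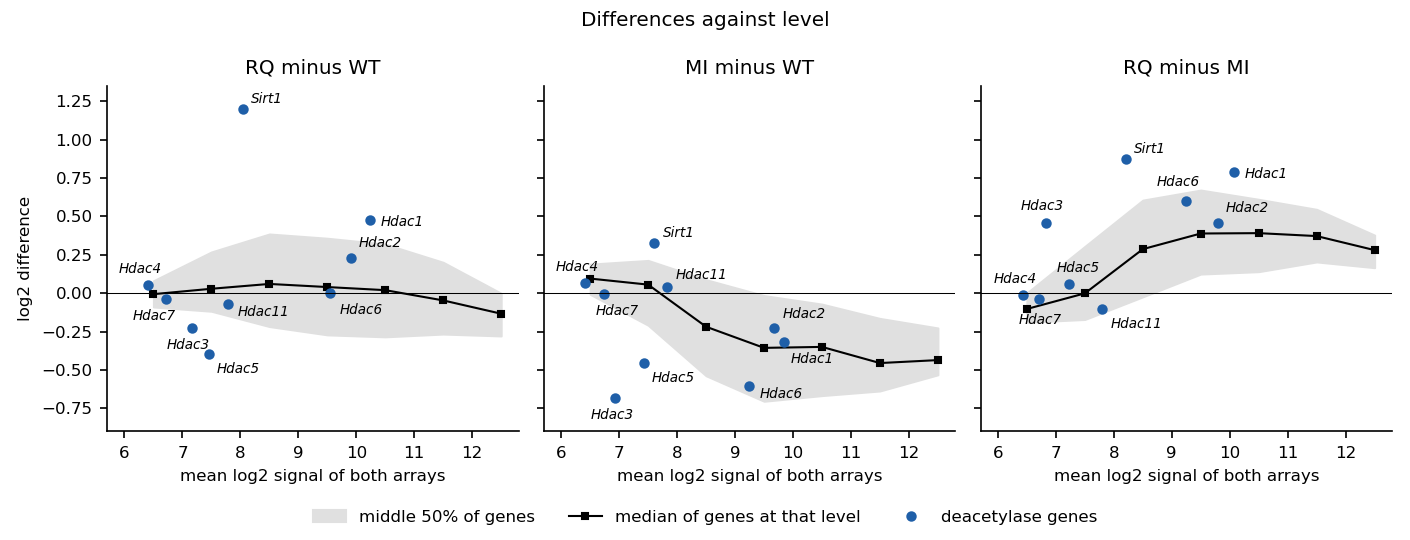
Log2 difference against the mean log2 signal of the 2 arrays compared, for the 9 members above the filter (blue) over the median (squares) and middle 50% (grey) of all genes in bins of 1 log2 unit. The median of genes is -0.36 at levels 9 to 10 for MI minus WT, where Hdac1 and Hdac2 lie. In that comparison Hdac3 and Hdac5 lie below the middle 50% of genes of their own level.

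The deacetylases outside the named members gave no 2-fold difference. Of 8 such genes on the array 6 were above the filter. Sirt2, a mainly cytoplasmic relative of Sirt1, read 7.97 in RQ, 8.34 in MI and 8.48 in WT and was thus lowest in RQ, with an RQ minus WT difference of -0.51. Sirt3, the main mitochondrial deacetylase, read 6.61 in RQ, 6.31 in MI and 6.72 in WT. Sirt7 read 6.31, 6.43 and 6.11. Hdac9 and Hdac10 were below the filter on each array. Across the 6 genes the median was -0.04 for RQ minus WT, 0.13 for MI minus WT and -0.14 for RQ minus MI. For RQ minus WT the highest of the 6 was Sirt7 at 0.20, with RQ just at the filter and WT below it.

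The complexes that carry Hdac1 and Hdac2 were read next. Of 13 SIN3 genes above the filter 0 passed 2-fold in RQ against WT and 7 were above 0 (median 0.01), and of 12 in MI against WT 0 passed, beside 2.44% of all genes at least 2-fold lower. Of these 12, 9 were below 0, beside 40.5% of all genes (median -0.44, or -0.11 after the correction for level). The paralogous scaffolds differed in direction. Sin3a read 8.83 in RQ, 7.95 in MI and 8.12 in WT, and its RQ minus WT difference of 0.71 was matched by 0.78 and 0.83 in its other 2 probe sets. Sin3b read 9.32 in RQ, 8.89 in MI and 9.87 in WT, so that WT was highest. Its differences were -0.55 for RQ minus WT and -0.98 for MI minus WT, which was -0.68 after the correction for level, and its other probe sets gave -0.63 and -0.53 for the first and -1.05 and -0.91 for the second. Ing1, a histone-binding subunit, read 7.80 in RQ, 7.51 in MI and 8.41 in WT, but its other 3 probe sets above the filter ran from 0.03 to 0.13 for RQ minus WT.

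Of 12 NuRD genes 0 passed 2-fold in RQ against WT (median -0.03), and 1 of 11 was at least 2-fold lower in MI against WT, beside 2.44% of all genes (median -0.37, or -0.10 corrected). That gene was Mta3, a subunit that helps to set the targets of NuRD. Mta3 read 9.58 in RQ, 8.50 in MI and 9.67 in WT. Its difference of -1.17 in MI was -0.90 after the correction for level, and its other 2 probe sets above the filter gave -0.31 to 0.04. Between RQ and MI it was again the single NuRD gene of 12 past 2-fold, with RQ higher by a difference of 1.08, beside 1.98% of all genes. That difference was 0.78 after the correction for level, which is below 2-fold, and 0.04 to 0.21 in its other probe sets. The -0.90 in MI against WT is below 2-fold too.

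The CoREST and CtBP list held the largest single difference of the 5 complexes for RQ minus WT and for RQ minus MI, in Ctbp2. Of 10 genes 8 were above 0 for RQ minus WT, beside 51.7% of all genes, and 1 was at least 2-fold higher, beside 1.68%. The median of 0.17 was below the median gap of 0.18 between probe sets of 1 gene. For RQ minus MI 2 of 10 were at least 2-fold higher, beside 1.98% of all genes, also after the correction for level (median 0.30), and for MI minus WT 0 of 10 (median -0.12). Ctbp2, a corepressor that recruits deacetylases, read 9.81 in RQ, 8.20 in MI and 8.37 in WT. RQ was high and MI close to WT, with differences of 1.44 for RQ minus WT and 1.61 for RQ minus MI, and its second probe set gave 0.92 and 1.36. Rcor2, a CoREST scaffold of embryonic stem cells, read 8.60 in RQ, 7.16 in MI and 7.64 in WT, a difference of 0.95 for RQ minus WT and 1.43 for RQ minus MI. Its paralog Rcor1 ran the other way, at 6.97 in RQ, 7.81 in MI and 7.62 in WT, and Rcor3 was near WT, with a difference of -0.08 for RQ minus WT. The summed stem cell markers were likewise highest in RQ, and their part in the readings of Ctbp2 and Rcor2 was not tested.

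Of 4 NCoR and SMRT genes on the array none passed 2-fold, and the medians were 0.05 for RQ minus WT, 0.001 for MI minus WT and 0.20 for RQ minus MI. Over 3 genes read in RQ against WT and 4 in the other comparisons, these are small sets. Tbl1x, a subunit of these complexes, read 7.50 in RQ, 6.87 in MI and 7.51 in WT, the same order of arrays as its partner Hdac3 apart from near equality of RQ and WT. Its second probe set gave 0.94 for RQ minus WT and 0.01 for MI minus WT, so the probe sets of Tbl1x differed. Tbl1xr1 differed by 0.35 for RQ minus WT and by -0.26 in its other probe set, while Gps2 was below the filter in RQ and WT. Of 3 MiDAC genes Dnttip1 and Mideas were read, with RQ minus WT differences of 0.30 and -0.03. The other 2 probe sets of Mideas above the filter ran from -0.02 to 0.68, so its probe sets differed.

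The enzymes that add acetyl groups were mostly higher in RQ than in WT. Of 11 acetyltransferases, all above the filter, 10 were above 0 for RQ minus WT, beside 51.7% of all genes, and 3 were at least 2-fold higher, beside 1.68%. The median was 0.61 beside 0.01 over all genes. For MI minus WT 0 passed 2-fold and the median was 0.09, or 0.26 after the correction for level. For RQ minus MI 1 was at least 2-fold higher, beside 1.98% of all genes, and the median was 0.28. Ep300, the coactivator p300, read 8.22 in RQ, 6.92 in MI and 7.00 in WT, with RQ high and MI at the level of WT. It has no second probe set above the filter. Kat6b read 10.17 in RQ, 9.23 in MI and 8.62 in WT, a difference of 1.54 for RQ minus WT. Kat2b, or PCAF, read 8.55 in RQ, 7.65 in MI and 7.28 in WT, a difference of 1.26. The order of the 3 arrays in Kat6b and Kat2b was that of Sirt1 in the probe sets used. Their weaker probe sets did not repeat these sizes, with 0.12 for Kat6b and 0.13 and 0.18 for Kat2b in RQ minus WT. Nor did they repeat the order, with RQ minus MI at -0.15 for Kat6b and at -0.009 and -0.005 for Kat2b. With means of probe sets the median of the list was 0.35. The part of the stem cell markers, whose sum was highest in RQ, in these readings was not tested.

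**Figure D4:**
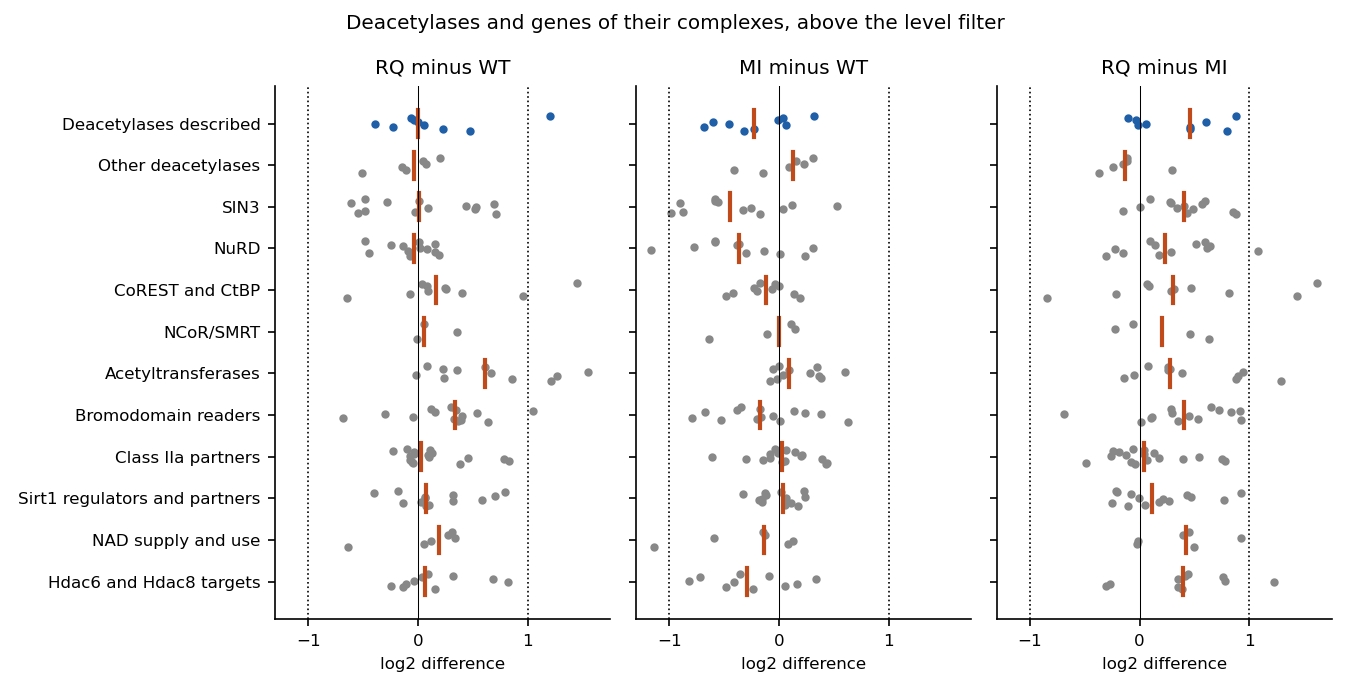
Log2 differences of the 9 members above the filter (blue) and of genes in 11 partner lists (grey) in the 3 comparisons, with medians as orange bars and dotted lines at 2-fold. Acetyltransferases have a median of 0.61 for RQ minus WT, against -0.002 for the deacetylases. The SIN3 and NuRD medians are at -0.44 and -0.37 for MI minus WT before any correction for level.

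Genes that act with particular members were mostly near WT. Of 16 partners of the class IIa enzymes above the filter in RQ against WT, such as the Mef2 factors and the 14-3-3 proteins that hold these enzymes in the cytoplasm, 0 passed 2-fold (median 0.02). The median was 0.03 for MI minus WT and 0.04 for RQ minus MI, with 0 of 17 past 2-fold in each. The 14-3-3 genes Ywhab, Ywhag and Ywhah differed most, by 0.83, 0.79 and 0.45 for RQ minus WT. Of 13 regulators and partners of Sirt1 above the filter 0 passed 2-fold in RQ against WT (median 0.07). The medians of 14 such genes were 0.04 for MI minus WT and 0.11 for RQ minus MI, again with 0 past 2-fold. Dnmt1, the maintenance DNA methyltransferase, read 9.23 in RQ, 8.31 in MI and 8.43 in WT, and its other 2 probe sets gave 0.55 and 0.72 for RQ minus WT. Xrcc6, the DNA end-binding protein Ku70 and a substrate of Sirt1, read 8.13 in RQ, 7.67 in MI and 7.43 in WT. Foxo3, a transcription factor that Sirt1 deacetylates, differed by 0.58, with -0.36 to 0.27 in its other probe sets.

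Sirt1 consumes NAD, so genes of NAD supply and use were read with it. Of 6 above the filter 0 passed 2-fold in RQ against WT (median 0.19) and 1 was at least 2-fold lower in MI, beside 2.44% of all genes (median -0.13). For RQ minus MI 0 passed 2-fold (median 0.42, or 0.18 after the correction for level). The 1 gene was Nampt, which makes the NAD precursor in the salvage pathway and read 9.33 in RQ, 8.83 in MI and 9.96 in WT. Both variants were below WT, by -0.64 in RQ and -1.14 in MI, as the summed endoderm markers were, whose part was not tested. The MI value was -0.84 after the correction for level, below 2-fold, and its other probe sets gave -1.14 and -0.64. For RQ minus WT those probe sets gave -0.10 to 0.24. Nampt was thus lower in MI by each probe set above the filter, while its probe sets differed in sign for RQ. Of 10 tubulin, chaperone and cohesin genes whose proteins are targets of Hdac6 and Hdac8 or act with those targets, 0 passed 2-fold against WT in either variant (medians 0.07 in RQ and -0.29 in MI, where it was 0.13 after the correction). Only Smc3 passed 2-fold between RQ and MI, at 10.05 in RQ, 8.82 in MI and 9.23 in WT, beside 1.98% of all genes at least 2-fold higher. Its difference of 1.23 was 0.91 after the correction for level, below 2-fold, and -0.06 in its second probe set.

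The gene pair behind the choice of members gave little signal. Mir155hg, the host transcript of the miRNA printed above, read 5.29 in RQ, 5.34 in MI and 5.36 in WT, below the filter on each array, and the miRNA itself was not measured. The mouse Brca1 probe sets, not known to read the human gene, gave 6.80 in RQ, 6.96 in MI and 6.81 in WT for the one used. Another of much the same signal gave 6.80 in RQ, 6.36 in MI and 6.88 in WT, so the sign of MI minus WT depended on the probe set, at 0.15 and -0.52, and the mean of all 4 was -0.19. Bard1, the partner of Brca1, and Brip1 were below the filter on each array.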

How the data were processed

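The deposited values are log2 signals of 45101 probe sets on 3 Affymetrix mouse arrays, 1 per genotype. Partek and RMA are named per the submitters' processing notes, and the order of steps, versions and the genome build are not given in the sources used here. No raw scans or detection calls entered the work. Gene symbols come from the annotation of the array platform, and 34741 of 34945 with 1 symbol matched the RefSeq gene table of GRCm38.p6 by Entrez identifier, which changed 0 symbols. Differences of log2 signals were taken between arrays, without a test, as there are no replicates. The lowess correction used a span of 0.3 and 3 robustness iterations over all probe sets (Python 3.11.15, statsmodels 0.14.6). The counting was tested on simulated data. The members and the 13 partner and 5 marker lists were chosen with earlier results of these data known. Named genes are all members, Brca1 and Mir155hg, of each partner list the genes past 2-fold or else the 3 with the largest difference, and the 5 genes nearest to Sirt1 and to Hdac2 in both differences from WT. Further genes, such as Rcor1, were named after their values were seen.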

Additional observations from a re-analysis of the deposited data

How the results depend on the processing

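With no replicates, a value is called moved where it shifted by more than the median gap between probe sets of 1 gene. The counts of members past 2-fold were 1, 0 and 0 for RQ minus WT, MI minus WT and RQ minus MI under each scaling, filter and probe set choice tried. With a 1.5-fold limit they were 1, 2 and 3 as deposited, and Hdac1 and Hdac6 fell below it after the lowess correction. With a 3-fold limit they were 0 in each. The median of members for MI minus WT (-0.23) was 0.0025 after quantile normalization again and -0.020 after the lowess correction. That for RQ minus MI (0.46) was 0.095 and 0.12 with these and 0.26 without a level filter. Sirt1 ranged from 1.07 to 1.21 for RQ minus WT, from 0.26 to 0.44 for MI minus WT and from 0.63 to 0.95 for RQ minus MI. Over the scaling and probe set choices 8 of 9 members kept their sign for RQ minus WT, 4 for MI minus WT and 7 for RQ minus MI. Of the 147 member differences recomputed 17 moved. Many of them could not move, so this share does not measure stability. A gene with 1 probe set keeps its value under any choice of probe set. Centring on medians shifted all genes of a comparison alike, by less than the median gap. When probe sets that may hit more than 1 transcript were dropped, Hdac3 had no value, Hdac2 was at 0.40 and Hdac11 at -0.35 for RQ minus WT, the CoREST median was 0.39 in RQ minus WT and the SIN3 median -0.06 in MI minus WT. The filters on list medians were added after seeing the data. No paired analysis was possible because each genotype has 1 array, and no replicate could be left out for the same reason. Hdac4, Hdac7 and Hdac8 lie near or below the filter, where the distance of signal from background is least known.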

Other observations

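Proteins that read acetylated lysines through bromodomains were mostly higher in RQ. Of 14 such genes above the filter 11 were above 0 for RQ minus WT, beside 51.7% of all genes (median 0.34, or 0.14 with means of probe sets). Of the 14, 1 was at least 2-fold higher, beside 1.68% of all genes. For MI minus WT 9 of 14 were below 0, beside 40.5% of all genes (median -0.17, also after the correction for level). For RQ minus MI 13 of 14 were above 0, beside 44% of all genes (median 0.40, or 0.32 corrected). In both comparisons 0 passed 2-fold. Baz2b read 8.11 in RQ, 7.19 in MI and 7.06 in WT, a difference of 1.05 for RQ minus WT.

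The genes whose differences from WT in RQ and MI lay nearest to those of Sirt1, among 10988 genes above the filter on all 3 arrays, were Phf3, Fat1, Foxn2, Cdyl and Nodal, at Euclidean distances of 0.038 to 0.052 log2 units. Cdyl, a chromodomain protein that binds repressive complexes, read 8.79 in RQ, 7.91 in MI and 7.62 in WT. Those nearest to Hdac2 were Glrx5, Zmym2, Thoc1, Abcd3 and Timmdc1, at 0.005 to 0.022. Zmym2, a zinc finger protein of the CoREST list, read 8.52 in RQ, 8.05 in MI and 8.27 in WT. Both differences share the WT array, and 3 arrays describe likeness only coarsely.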
